A study of Mus musculus with 9 samples.

Results

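The genes described here are p53 itself (*Trp53*) and 9 genes that it is known to activate, 10 genes chosen by symbol from a table of 15074 genes, and all 10 were listed. RNA-seq was run on 9 libraries of mouse J1 embryonic stem cells (ESCs), 1 for each of 3 lines at days 0, 2 and 4 of differentiation. WT cells carried wild-type *Dnmt1*, 1KO cells were Dnmt1-/-, and 1KO+1CI cells were Dnmt1-/- cells with a transgene for DNMT1 C1229S, a catalytically inactive form of this maintenance DNA methyltransferase. The CAG promoter drove the transgene together with a linked zeocin resistance gene, and the transgenic cells had been selected in zeocin, an agent that breaks DNA. All 3 libraries of this line carry the same label, taken here to mean 1 clone, and other clones were not analysed here. Undifferentiated cells (day 0) grew on mouse embryonic fibroblasts that had been treated with mitomycin C, which crosslinks DNA, and these feeder cells were depleted before differentiation through embryoid bodies and adherent culture without LIF.

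p53 is a transcription factor that is held at a low level by MDM2, an E3 ubiquitin ligase whose own gene it activates, so that both proteins form a negative feedback loop. Stress such as DNA damage stabilizes p53, and its targets then halt the cell cycle, start apoptosis or damp growth signals. Mouse ESCs contain abundant p53, and its activity is tied to loss of self-renewal when they differentiate. Levels are given as FPKM, read counts normalized for transcript length and sequencing depth, so that genes can be compared per length. Differences are differences in log2(FPKM + 1), and between single libraries those of 0.5 or more in size were counted, a size taken from the study. Each condition has 1 library, so a difference between 2 libraries has no replicate error and no p-value. For the members, the 95% counting interval of a log2 ratio, taken over 1000 bases of transcript, extended by between 0.05 and 0.22 to either side, and it covers counting error only. The tests come from a single additive model of line plus day with 9 libraries, called the fit below. For lines, they set the mean difference over the days against its deviations between days. For days, they set the mean difference over the lines against its deviations between lines. In the fit a gene was called, or rose or fell, at an adjusted p under 0.05.

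p53 binds a consensus decamer that reads the same on both strands, and a full response element holds a pair of them. To show what the promoters of the members look like, the 250 bases before each start site in RefSeq (GRCm38.p6) were searched for the p53 consensus decamer. Windows of 7 members were searched. None was searched for *Trp53inp1*, *Pmaip1* and *Zmat3*, so the counts below leave these genes out and say nothing about their promoters. Of the 7 genes, 5 had at least 1 decamer without a departure from the consensus, namely *Cdkn1a*, *Ccng1*, *Bax*, *Mdm2* and *Trp53*. Some genes have several windows, and 5 of the 10 windows of the 7 genes held such a decamer, against 7.13% of all 32851 windows. The pair closest to the consensus was found in the upstream *Cdkn1a* window, beginning 51 bases before the start, and in the *Ccng1* window, beginning 195 bases before it, each with 1 departure. A pair with at most 1 departure occurred in 0.0883% of all windows. The *Bax* window had a pair with 2 departures and a spacer of 1 base, whereas *Mdm2* had 1 decamer and *Phlda3* none in this window. The *Bbc3* windows held no decamer without a departure either. The upstream *Cdkn1a* window also held 2 CG dinucleotides, against a median of 6 over all windows and 29 in *Mdm2*. The other *Cdkn1a* window, at a start site further downstream, had no such decamer, a closest pair with 7 departures and 19 CG dinucleotides. Below are 4 windows, 5′ to 3′ on the strand of the gene, in which capitals mark decamers without departures and pairs with at most 3. *Cdkn1a*, *Ccng1* and *Bax* are shown for the pairs closest to the consensus, and *Mdm2* for its place in the feedback loop. A match to the consensus is a description of these letters and not a measured binding site.
Cdkn1a, chr17:29090729-29090978, plus strand: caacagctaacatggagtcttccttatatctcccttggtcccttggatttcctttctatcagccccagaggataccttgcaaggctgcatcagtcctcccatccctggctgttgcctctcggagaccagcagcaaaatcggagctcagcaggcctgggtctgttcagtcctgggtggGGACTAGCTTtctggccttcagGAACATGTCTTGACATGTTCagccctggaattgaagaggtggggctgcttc
Ccng1, chr11:40755287-40755536, minus strand: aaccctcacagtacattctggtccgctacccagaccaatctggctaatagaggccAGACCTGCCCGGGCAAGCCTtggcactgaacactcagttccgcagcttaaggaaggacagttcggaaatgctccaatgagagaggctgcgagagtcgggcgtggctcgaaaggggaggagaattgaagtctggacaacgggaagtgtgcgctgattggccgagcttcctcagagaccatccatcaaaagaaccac
Bax, chr7:45466899-45467148, minus strand: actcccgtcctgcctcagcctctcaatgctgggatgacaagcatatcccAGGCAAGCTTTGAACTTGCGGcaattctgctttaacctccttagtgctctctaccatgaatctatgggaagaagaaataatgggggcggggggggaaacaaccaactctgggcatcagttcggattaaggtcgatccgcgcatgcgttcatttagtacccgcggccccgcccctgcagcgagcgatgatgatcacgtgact
Mdm2, chr10:117710759-117711008, minus strand: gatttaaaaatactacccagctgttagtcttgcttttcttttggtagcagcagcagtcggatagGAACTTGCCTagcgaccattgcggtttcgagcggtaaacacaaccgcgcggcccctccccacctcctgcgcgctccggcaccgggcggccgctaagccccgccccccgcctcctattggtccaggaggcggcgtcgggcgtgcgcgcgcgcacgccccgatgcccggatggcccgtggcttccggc

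All 10 genes were measured in every library, at between 11.6 and 276 FPKM. By their median over the 9 libraries, *Bax* (222 FPKM) and *Trp53* (216 FPKM) were highest, followed by *Ccng1* (123 FPKM), *Trp53inp1* (76.9 FPKM), *Mdm2* (75.3 FPKM), *Cdkn1a* (60.5 FPKM) and *Phlda3* (45.2 FPKM). *Pmaip1* (31.3 FPKM), *Zmat3* (24.2 FPKM) and *Bbc3* (22.6 FPKM) were lowest. Neighbours in this order overlapped in their ranges over the libraries. *Pmaip1* varied most, by 4.60-fold between its lowest and highest library, and *Bax* least, by 1.44-fold.

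As a check of the labels, *Dnmt1* lay between 48.5 and 80.4 FPKM in WT, between 12.3 and 17.4 FPKM in 1KO libraries, while the transgenic libraries had between 129 and 315 FPKM. The ESC gene *Pou5f1* lay between 632 and 1008 FPKM in all 9. Other ESC markers did not stay level. Of 6 tested, 4 fell from day 0 to day 4 in the fit, where 13.2% of all genes did. The median of the 6 was -2.62, with *Klf4* lowest at -4.44 and *Pou5f1* highest at 0.11. Recovered depth ranged from 20200000 to 28100000 reads. Fibroblast markers, of which 9 of 10 were listed and none of those was at 0, summed at day 0 to 120 FPKM for WT, 288 FPKM for 1KO and 311 FPKM for 1KO+1CI cells, and lay between 18.8 and 51.8 FPKM in the 6 later libraries. Primitive endoderm markers (9 of 9 listed, none at 0) summed to between 37.3 and 67.7 FPKM in WT libraries, between 50.8 and 80.0 FPKM in 1KO libraries and between 76.9 and 130 FPKM with the transgene. These sums moved with the lines in the same direction as several p53 targets, and their part in the results below was not tested. In bulk RNA, a different number of cells of a type and a different amount of RNA per cell cannot be told apart.

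The inactive-DNMT1 line held the highest levels of most of the 10 members. *Cdkn1a*, *Mdm2*, *Ccng1*, *Trp53inp1*, *Pmaip1*, *Phlda3* and *Zmat3* were higher in 1KO+1CI than in both other lines at every day, which is 7 of the 10 members, against 6.62% of the 12153 genes with a mean of at least 1 FPKM. *Trp53*, *Bbc3* and *Bax* did not share this order. Counted day by day, 1KO+1CI cells were highest in 7 members (day 0), 7 members (day 2) and 9 members (day 4). No share of all genes was computed for single days. The 6.62% covers only genes highest in 1KO+1CI cells at every day, so it is no background for these counts.

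**Figure D1:**
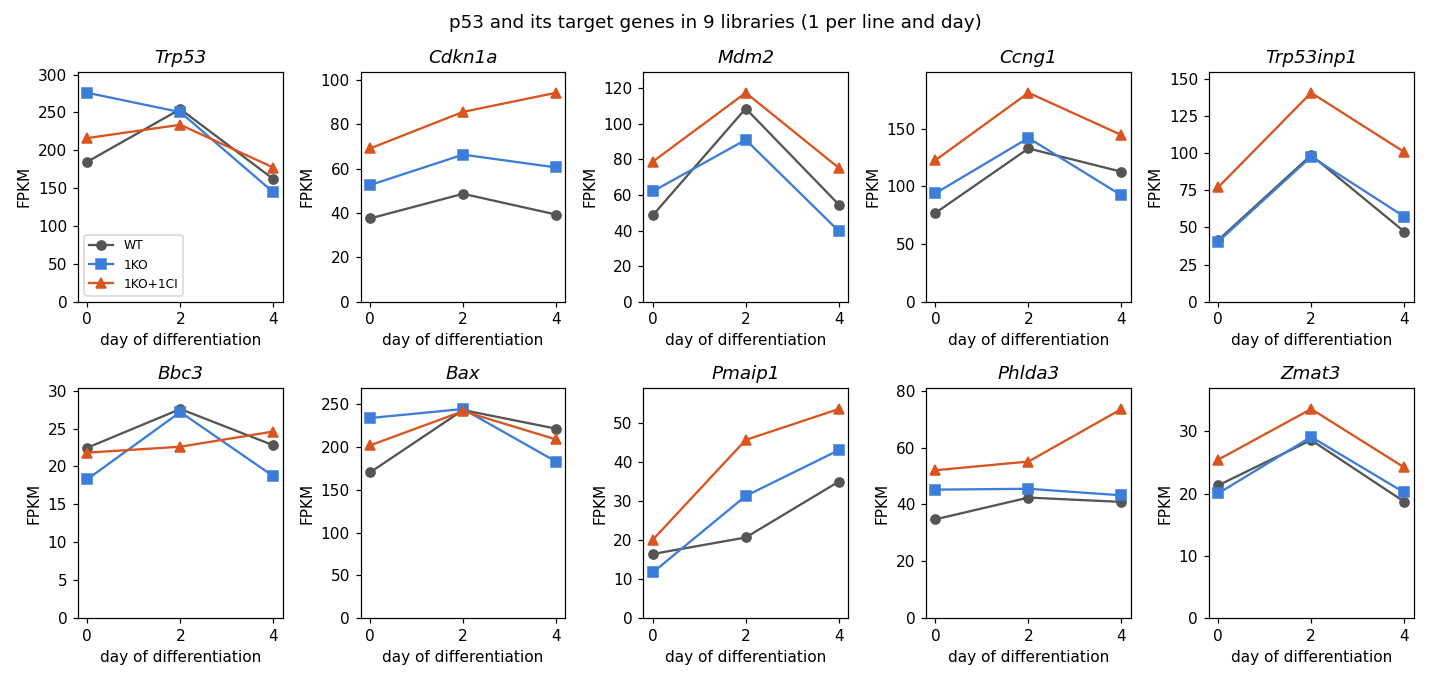
FPKM of *Trp53* and 9 p53 target genes (vertical axes, from 0) against the day of differentiation (horizontal axes), with 1 point per library and lines joining the libraries of WT (grey circles), 1KO (blue squares) and 1KO+1CI cells (orange triangles). The 1KO+1CI points lie above both other lines at all 3 days in 7 panels, and most genes are highest at day 2.

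*Trp53* encodes the regulator itself. The gene, on chromosome 11 from 69580359 to 69591873 (GRCm38), had 185, 254 and 162 FPKM in WT cells at days 0, 2 and 4. It had 276, 250 and 144 FPKM in 1KO cells and 216, 234 and 177 FPKM in 1KO+1CI cells. The lines therefore overlapped, and the 1KO library was the highest of the 3 at day 0 and the lowest at day 4. In the fit, *Trp53* differed by 0.08 ± 0.15 (SE) between 1KO+1CI and WT cells (limma, adjusted p = 0.820) and by -0.05 ± 0.15 between 1KO+1CI and 1KO cells. The order of the lines was thus not the one seen in *Cdkn1a* or *Trp53inp1*. p53 is controlled largely at the protein level, and protein was not measured here.

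The lines were most clearly separated in the arrest gene. *Cdkn1a* encodes p21, an inhibitor of cyclin-dependent kinases, and lies on chromosome 17 from 29090976 to 29100727. It had 37.5, 48.6 and 39.3 FPKM in WT cells at days 0, 2 and 4, then 52.6, 66.3 and 60.5 FPKM in 1KO cells and 69.1, 85.5 and 94.2 FPKM in 1KO+1CI cells. The ranges of the 3 lines over the days did not overlap, and the order from low to high was always WT, 1KO and 1KO+1CI. Between 1KO+1CI and WT cells, *Cdkn1a* was 1.84-fold higher at day 0, 1.76-fold at day 2 and 2.40-fold at day 4. It rose in the fit by 0.97 ± 0.10 (SE) in 1KO+1CI against WT cells (adjusted p = 0.00484) and by 0.51 ± 0.10 in 1KO against WT cells (adjusted p = 0.0445). The first call was lost without day 2 (adjusted p = 0.0828) and the second without any 1 of the days (adjusted p between 0.105 and 0.341) and when genes of low level were kept (adjusted p = 0.0502).

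Among the feedback genes, *Mdm2* encodes the ligase that marks p53 for degradation, and *Ccng1* encodes cyclin G1, which takes part in the control of p53 through MDM2. *Mdm2*, on chromosome 10 from 117688875 to 117710758, had 48.5, 109 and 54.6 FPKM in WT, 62.0, 91.1 and 39.7 FPKM in 1KO and 78.7, 118 and 75.3 FPKM in 1KO+1CI cells at days 0, 2 and 4. Its lines overlapped over the days, and day 2 was the highest day in each line. 1KO+1CI cells exceeded 1KO cells by 0.91 at day 4, against 0.34 and 0.36 at days 0 and 2. *Ccng1*, on chromosome 11 from 40748552 to 40755311, had 77.0, 133 and 113 FPKM in WT, 94.1, 142 and 92.3 FPKM in 1KO and 123, 181 and 145 FPKM in 1KO+1CI cells. It was higher in 1KO+1CI cells at each day, although the ranges over the days overlapped. In the fit, *Ccng1* rose by 0.49 ± 0.12 (SE) in 1KO+1CI against WT cells (adjusted p = 0.0498), and *Mdm2* differed by 0.42 ± 0.16 (adjusted p = 0.177). The *Ccng1* call stood at the threshold and was lost without any 1 of the days (adjusted p between 0.0649 and 0.257) and when genes of low level were kept (adjusted p = 0.0573).

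*Trp53inp1* encodes a nuclear protein that promotes p53 phosphorylation and autophagy, and it lies on chromosome 4 from 11156431 to 11174379. It had 41.3, 98.6 and 47.2 FPKM in WT and 40.3, 97.6 and 57.3 FPKM in 1KO cells, which were close to each other at days 0 and 2. In 1KO+1CI cells it had 76.9, 141 and 101 FPKM. At each day the 1KO+1CI library stood apart from the other two, by 1.91-fold, 1.44-fold and 1.76-fold against 1KO cells. In the fit, *Trp53inp1* rose by 0.82 ± 0.12 (SE) in 1KO+1CI against WT cells (adjusted p = 0.0114), a call that was lost without any 1 of the days (adjusted p between 0.0650 and 0.0918). Its difference of 0.75 ± 0.12 between 1KO+1CI and 1KO cells was the 4th strongest of 12153 genes by unadjusted p (0.000231), and it did not pass the correction (adjusted p = 0.510).

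Of the proapoptotic genes, *Pmaip1* encodes NOXA and *Bbc3* encodes PUMA, which are BH3-only proteins that block antiapoptotic BCL2 relatives, and *Bax* encodes a protein that permeabilizes mitochondria. They did not move together. *Pmaip1*, on chromosome 18 from 66458533 to 66465565, had 16.4, 20.6 and 34.96 FPKM in WT, 11.6, 31.3 and 43.0 FPKM in 1KO and 20.02, 45.6 and 53.6 FPKM in 1KO+1CI cells at days 0, 2 and 4. It was lowest at day 0 in each line, and the lines overlapped over the days. *Bbc3*, on chromosome 7 from 16308393 to 16318205, stayed between 18.3 and 27.6 FPKM in all 9 libraries and was highest in the WT library at day 2. *Bax*, on chromosome 7 from 45461697 to 45466898, had 170, 243 and 222 FPKM in WT, 234, 245 and 183 FPKM in 1KO and 202, 242 and 209 FPKM in 1KO+1CI cells. At day 2 the 3 lines lay between 242 and 245 FPKM for *Bax*. In the fit of 1KO+1CI against WT cells, *Pmaip1* differed by 0.66 ± 0.19 (SE, adjusted p = 0.0823), *Bbc3* by -0.07 ± 0.13 and *Bax* by 0.05 ± 0.13.

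*Phlda3* encodes a PH-domain protein that competes with AKT for membrane lipids, and *Zmat3* encodes an RNA-binding zinc finger protein that regulates splicing. *Phlda3*, on chromosome 1 from 135766119 to 135769136, had 34.7, 42.4 and 40.9 FPKM in WT, 45.2, 45.5 and 43.2 FPKM in 1KO and 52.0, 55.1 and 73.6 FPKM in 1KO+1CI cells. The ranges of the 3 lines over the days did not overlap. It rose in the fit by 0.59 ± 0.13 (SE) in 1KO+1CI against WT cells (adjusted p = 0.0360), and this call was lost without any 1 of the days (adjusted p between 0.107 and 0.172). *Zmat3*, on chromosome 3 from 32334792 to 32366014, had 21.3, 28.6 and 18.7 FPKM in WT, 20.01, 29.1 and 20.2 FPKM in 1KO and 25.4, 33.6 and 24.2 FPKM in 1KO+1CI cells. Its excess in 1KO+1CI cells was small and similar at each day, with differences from 1KO cells of 0.33, 0.20 and 0.25.

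Between 1KO and WT cells, the comparison of cells without and with DNMT1, members passed 0.5 about as often as all genes did. At each day 1 member was higher by 0.5 or more, and none was lower. These were *Trp53* at day 0 (0.58), *Pmaip1* at day 2 (0.58) and *Cdkn1a* at day 4 (0.61). Of all genes, 11.5%, 8.08% and 8.80% were higher by as much at days 0, 2 and 4, and 12.9%, 8.53% and 6.15% were lower. The members had median differences of 0.32, 0.02 and -0.04 at these days, beside -0.01, -0.01 and 0.00 over all genes. In the fit, 1 of 10 members rose, *Cdkn1a*, where 0.987% of all genes rose and 1.93% fell. It was also the only member with an unadjusted p under 0.05, where 7.22% of all genes were higher and 8.41% lower. The 1KO libraries exceeded WT at all 3 days for 2 members, *Cdkn1a* and *Phlda3*, and for 15.6% of all genes.

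Between 1KO+1CI and 1KO cells, which differ by the transgene and by the selection and cloning that came with it, the members higher by 0.5 or more were at day 0 *Trp53inp1* (0.92) and *Pmaip1* (0.73) and at day 2 *Pmaip1* (0.53) and *Trp53inp1* (0.52). At day 4, 5 members passed 0.5, namely *Mdm2* (0.91), *Trp53inp1* (0.80), *Phlda3* (0.76), *Ccng1* (0.64) and *Cdkn1a* (0.63). Of all genes, 2.80%, 2.70% and 5.10% were higher by as much at days 0, 2 and 4. No member was lower by 0.5 or more, where 4.20%, 1.88% and 3.92% of all genes were. The members had median differences of 0.34, 0.31 and 0.50, beside -0.02, 0.01 and 0.00 over all genes. At all 3 days, 7 members were higher, as were 16.3% of all genes. All 10 members were higher in 1KO+1CI cells at day 4, as were 49.7% of all genes. In the fit with limma, 0 of 10 members passed the correction, and 0.00823% of all genes did, a single gene that was *Dnmt1*. At an unadjusted p under 0.05, 7 of 10 members were higher and 0 were lower, against 1.93% and 1.81% of all genes. The 7 were *Trp53inp1* (0.75 ± 0.12, SE), *Mdm2* (0.54 ± 0.16), *Pmaip1* (0.52 ± 0.19), *Cdkn1a* (0.46 ± 0.10), *Ccng1* (0.46 ± 0.12), *Phlda3* (0.41 ± 0.13) and *Zmat3* (0.26 ± 0.09). At day 0 the summed fibroblast markers of these 2 libraries stood close to each other, at 288 and 311 FPKM, whereas they were 34.4 and 51.8 FPKM at day 2 and 22.6 and 41.3 FPKM at day 4. The summed primitive endoderm markers were higher in 1KO+1CI than in 1KO cells at each day, at 94.6 against 78.6 FPKM, 76.9 against 50.8 FPKM and 130 against 80.0 FPKM. In the fit, 4 of 5 tested endoderm markers and 3 of 9 fibroblast markers were higher at an unadjusted p under 0.05, and their part in the members' differences was not tested.

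**Figure D2:**
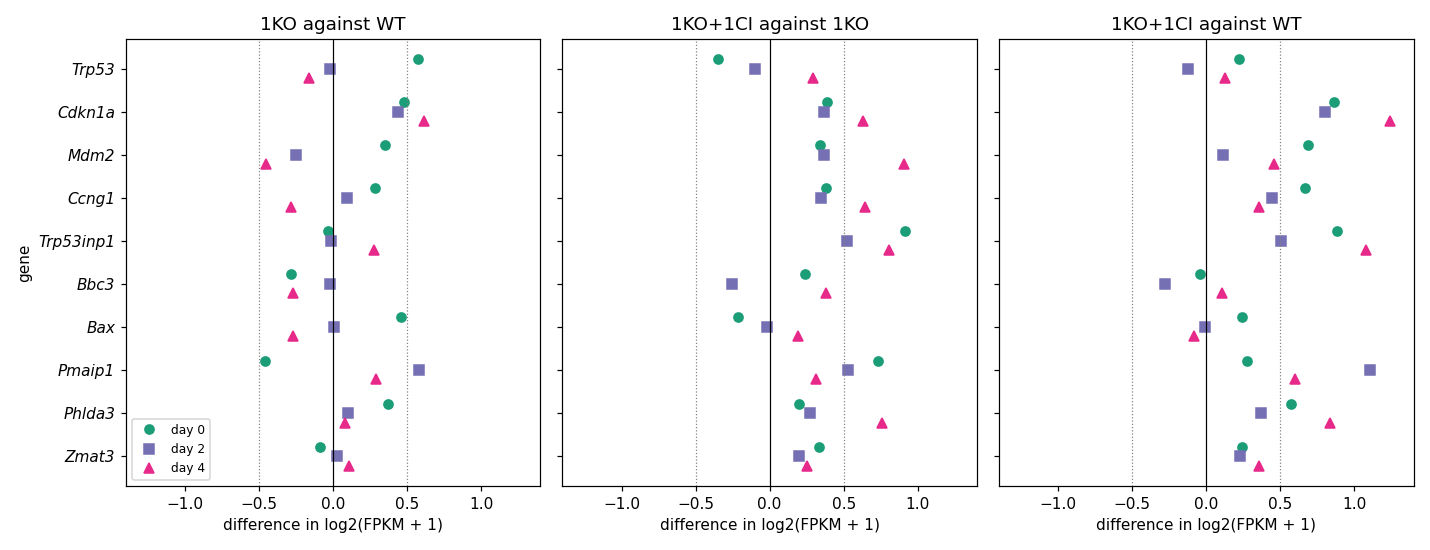
Difference in log2(FPKM + 1) (horizontal axes) of each member (vertical axis) between lines at day 0 (green circles), day 2 (purple squares) and day 4 (pink triangles), 1 library against 1 library, with dotted lines at a difference of 0.5 in either direction. The points scatter around 0 for 1KO against WT cells, and 25 of 30 lie above 0 for 1KO+1CI against 1KO cells.

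Against WT cells, 1KO+1CI cells had 5 members higher by 0.5 or more at day 0, 3 at day 2 and 4 at day 4, where 11%, 10.6% and 12.4% of all genes were. None was lower by as much, where 14.4%, 9.37% and 9.59% of all genes were. The members had median differences of 0.42, 0.30 and 0.41, beside -0.05, 0.01 and 0.00 over all genes. *Cdkn1a* and *Trp53inp1* passed at each of the 3 days, and the largest difference was that of *Cdkn1a* at day 4, at 1.24. In the fit, 4 of 10 members rose, namely *Cdkn1a*, *Trp53inp1*, *Phlda3* and *Ccng1*, where 2.33% of all genes rose and 3.08% fell. At an unadjusted p under 0.05, 7 were higher and 0 lower, where 9.89% of all genes were higher and 11.7% lower. In 7 members 1KO+1CI cells exceeded WT cells at all 3 days, as did 17.9% of all genes. The number called fell to 1 without day 0, 0 without day 2 and 1 without day 4, where each fit rests on 6 libraries. The same libraries enter several of these comparisons, so their values are not independent.

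Most members were highest in the middle of the time course. From day 0 to day 2, 5 of 10 members rose in the fit, where 9.08% of all genes did, and none fell, where 8.70% did. These were *Trp53inp1* by 1.12 ± 0.12 (SE, adjusted p = 0.00145), *Pmaip1* by 0.94 ± 0.19 (adjusted p = 0.0139), *Mdm2* by 0.76 ± 0.16 (adjusted p = 0.0176), *Ccng1* by 0.64 ± 0.12 (adjusted p = 0.00972) and *Zmat3* by 0.44 ± 0.09 (adjusted p = 0.0164). From day 2 to day 4, 5 members fell, where 14% of all genes did, and none rose, where 12.6% did. These were *Mdm2* (-0.93 ± 0.16, adjusted p = 0.00611), *Trp53inp1* (-0.76 ± 0.12, adjusted p = 0.00472), *Trp53* (-0.61 ± 0.15, adjusted p = 0.0199), *Zmat3* (-0.52 ± 0.09, adjusted p = 0.00654) and *Ccng1* (-0.39 ± 0.12, adjusted p = 0.0386). Thus 4 members, *Mdm2*, *Trp53inp1*, *Ccng1* and *Zmat3*, rose and then fell. Day 2 was the highest of the 3 days for 9 members of the WT line, 8 of the 1KO line and 6 of the 1KO+1CI line, where it was for 34.5%, 32.1% and 33.4% of all genes.

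*Pmaip1* did not follow that course. It was higher at day 4 than at day 2 in every line, and it rose from day 0 to day 4 by 1.41 ± 0.19 (SE, adjusted p = 0.00177), as 12.5% of all genes did. Its level was 2.13-fold higher at day 4 in WT, 3.69-fold in 1KO and 2.68-fold in 1KO+1CI cells. *Trp53* differed over the same days by -0.47 ± 0.15 (adjusted p = 0.0494), where 13.2% of all genes fell, a call at the threshold that was lost without day 2 (adjusted p = 0.103), with a pseudocount of 0.1 (0.05003) and when genes of low level were kept (0.0541). In the fit, *Cdkn1a*, *Bbc3*, *Bax* and *Phlda3* were not called between any days. From day 2 to day 4 *Cdkn1a* differed by -0.10 ± 0.10 and *Phlda3* by 0.10 ± 0.13, and both were highest in the 1KO+1CI library of day 4.

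**Figure D3:**
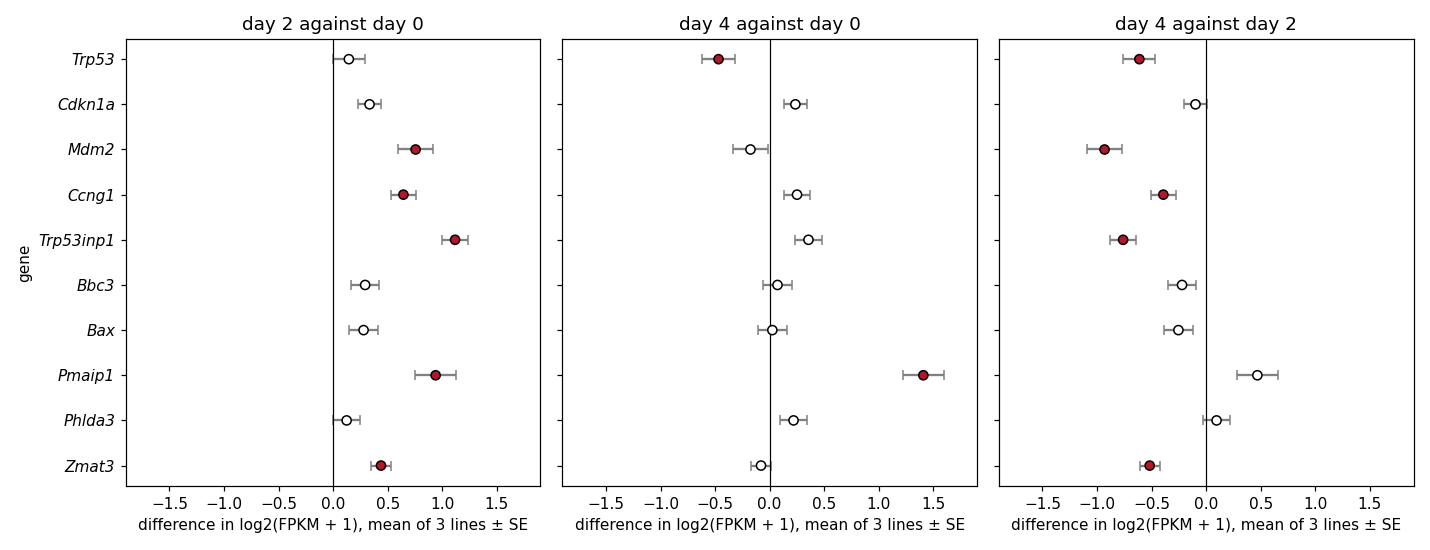
Differences in log2(FPKM + 1) between days estimated by the additive model (horizontal axes, estimate ± SE) for each member (vertical axis), with red points for an adjusted p under 0.05. In the left panel 5 members are red to the right of 0, in the right panel 5 are red to the left of it, and *Pmaip1* has the largest rise from day 0 to day 4, at 1.41.

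Pairs of members ranged from closely similar to opposed in their profiles over the 9 libraries, which share lines, days and scaling. As a description, Pearson's r was highest for *Trp53inp1* with *Ccng1* (0.93), *Zmat3* with *Trp53inp1* (0.91) and *Phlda3* with *Cdkn1a* (0.91), and lowest for *Pmaip1* with *Trp53* (-0.53). Among 8698 other genes that varied over the libraries, those most like *Cdkn1a* were *Cited4* (r = 0.95), *Impact* (0.93), *Srgn* (0.93), *Dock4* (0.92) and *Tktl1* (0.91). Genes most like the mean of the 9 members other than *Trp53* included *Zfp365* (0.97), *Hif1a* (0.97), *Scn3b* (0.96) and *Slc35d1* (0.96).

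Other genes known as p53 targets included genes that differed in either direction. Of 32 such genes, 31 were tested. Between 1KO+1CI and 1KO cells, 0 passed the correction and, at an unadjusted p under 0.05, 7 were higher and 1 lower, with a median difference of 0.22 beside 0.00 over all genes. Of all genes, 0.00823% passed the correction, and 1.93% were higher and 1.81% lower at this unadjusted p. The highest was *Plk2*, a polo-like kinase gene, at 0.84 ± 0.19 (SE), and the lowest *Steap3*, a metalloreductase gene, at -0.30 ± 0.13. *Plk2* had 24.9, 39.5 and 22.8 FPKM in 1KO and 42.8, 50.6 and 62.4 FPKM in 1KO+1CI cells at days 0, 2 and 4. At day 4, 14 of 29 measured genes were higher by 0.5 or more in 1KO+1CI than in 1KO cells and 1 was lower. Of all genes, 5.1% were higher by as much and 3.92% lower. Against WT cells, 2 of 31 rose in 1KO+1CI cells, *Steap3* by 0.83 ± 0.13 (adjusted p = 0.0121) and *Dcxr* by 0.64 ± 0.11 (adjusted p = 0.0170). None of the 31 fell, and of all genes 2.33% rose and 3.08% fell. At an unadjusted p under 0.05, 8 were higher and 3 lower against WT cells, with a median difference of 0.13. Of all genes, 9.89% were higher and 11.7% lower. *Steap3* also rose in 1KO against WT cells, by 1.12 ± 0.13 (adjusted p = 0.00938), and *Ckap2*, a spindle protein gene, fell by -0.57 ± 0.11 (adjusted p = 0.0344). In that comparison 0.987% of all genes rose and 1.93% fell. From day 0 to day 2, 13 of 31 rose and 2 fell, where 9.08% of all genes rose and 8.7% fell. The rises were led by *Gdf15*, a stress cytokine gene, at 1.35 ± 0.20 (adjusted p = 0.00516) and *Sesn2*, a sestrin gene, at 1.19 ± 0.18 (adjusted p = 0.00529). From day 2 to day 4, 12 of 31 fell and 5 rose, where 14% of all genes fell and 12.6% rose. *Sesn2* went from 22.1 to 68.4 and 29.1 FPKM in WT, from 26.7 to 63.6 and 26.6 FPKM in 1KO and from 34.3 to 58.1 and 44.6 FPKM in 1KO+1CI cells.

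**Figure D4:**
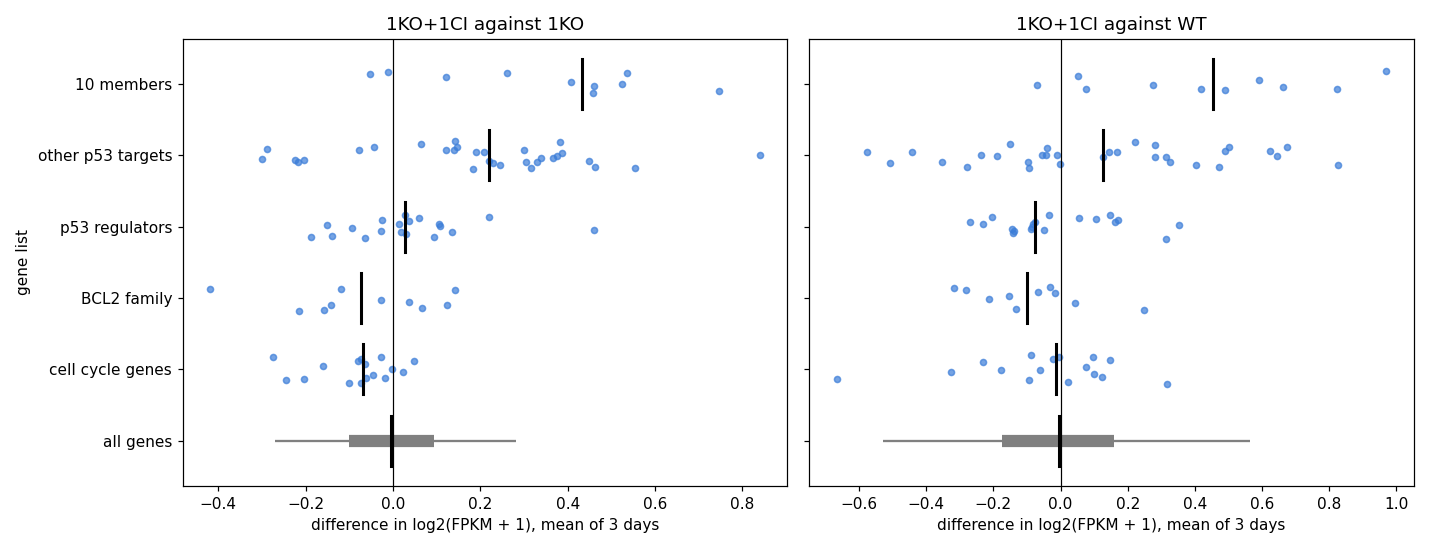
Differences in log2(FPKM + 1) estimated by the additive model (horizontal axes) for the 10 members and 4 other gene lists (vertical axis), 1 blue point per gene, with black bars at the medians. The grey line and box of all genes span their 5th to 95th and 25th to 75th percentiles. The median of the members is 0.43 for 1KO+1CI against 1KO cells and 0.45 against WT cells, and that of the cell cycle genes is -0.07 and -0.01.

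Cell cycle genes that are lowered where p21 is active, such as cyclin and mitotic kinase genes, had 1 call in the fit between the lines. Of 16 tested, 0 passed the correction between 1KO+1CI and 1KO cells and 0 had an unadjusted p under 0.05, with a median of -0.07. Of all genes, 0.00823% passed the correction, and 1.93% were higher and 1.81% lower at the unadjusted p. At day 4 alone, 1KO+1CI cells exceeded 1KO cells in 2 of 16 and in 49.7% of all genes, and the list's median was -0.09. At the same day they exceeded WT cells in 3 of 16 and in 49.9% of all genes, and the list's median was -0.22. At days 0 and 2, 1KO+1CI cells exceeded WT cells in 8 and 10 of 16, and in 45.7% and 51.6% of all genes. They exceeded 1KO cells at these days in 5 and 6 of 16, and in 46.3% and 53.6% of all genes. 1KO cells exceeded WT cells at day 4 in 5 of 16, and in 49.9% of all genes. In the fit of 1KO+1CI against 1KO cells, *Ccne1* was lowest at -0.28 and *Cdc20* highest at 0.05. Against WT cells, 1 of 16 fell in the fit in 1KO+1CI cells, the replication helicase gene *Mcm5*, by -0.67 ± 0.14 (SE, adjusted p = 0.0360), where 3.08% of all genes fell. Regulators of p53 (19 of 21 listed), which include the kinases *Atm*, *Atr* and *Chek2* and the MDM2 partner *Mdm4*, had 0 calls in either direction in the fit for the 3 comparisons between lines. Of all genes, 0.987% rose and 1.93% fell in 1KO against WT cells. The shares were 0.00823% and 0% in 1KO+1CI against 1KO cells, and 2.33% and 3.08% in 1KO+1CI against WT cells. At an unadjusted p under 0.05 there were 0 between 1KO and WT cells, 1 higher between 1KO+1CI and 1KO cells and 2 lower between 1KO+1CI and WT cells. Of all genes, 7.22%, 1.93% and 9.89% were higher and 8.41%, 1.81% and 11.7% lower in these comparisons. The other members of the BCL2 family, to which *Bax*, *Bbc3* and *Pmaip1* belong, likewise had 0 calls between lines in the fit among 10 tested genes. At the shares of all genes given above, lists of this size would hold few calls or none. Between single libraries, genes of both lists passed 0.5, such as *Trp73* (0.59 in 1KO+1CI against 1KO cells at day 4) and *Bad* (-0.90 at day 0). At an unadjusted p under 0.05 the BCL2 family had 1 gene, *Bad*, which differed by -0.42 ± 0.17 between 1KO+1CI and 1KO cells.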

How the data were processed

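The deposited table gives FPKM by gene symbol, made by the authors by trimming reads with Trim Galore, mapping to mm10 with HISAT2, and counting and normalizing with HOMER. The sources used here do not give tool versions, annotation release or strand setting. A gene's FPKM seems to average its transcripts. Of 15095 entries, 21 named no gene or a date and were left out, which held at most 0.117% of summed FPKM. No value was 0. A table of repeats was not used.

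Values were compared as log2(FPKM + 1). The tests used limma 3.58.1 in R 4.3.3, with line and day as factors, eBayes with trend, and Benjamini-Hochberg adjustment over 12153 genes with a mean of at least 1 FPKM. The error has 4 residual degrees of freedom and is the deviation of lines between days, since no condition was repeated. The p-values between lines thus treat the days of 1 line as its replicates. Those between days treat the 3 lines, which differ in genotype, as replicates. None of these p-values covers clones or cultures. On simulated data for 1KO+1CI against WT cells (12153 genes), 90.0% of differences of 1 and 21.0% of differences of 0.5 were called. There were 2 false calls. The simulation changed 100 genes by each size and gave each gene independent noise, so the rates in the real data can differ. For differences between 2 single libraries, the background was genes reaching 1 FPKM in either. Depth was read from the spacing of FPKM values of 1850 genes with 1 annotated transcript (GENCODE M21). Whole reads of the members could not be recovered, so counting intervals (Clopper-Pearson) used reads per 1000 bases. Python 3.11.15, numpy 2.4.6, pandas 2.3.3, scipy 1.17.1 and matplotlib 3.10.9 were used.

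The members and gene lists were chosen with earlier results of these data known. The text names all 10 members, the highest and lowest genes of each list, the genes of a list called by the fit, the 5 genes most like *Cdkn1a* or the mean of the members other than *Trp53*, of which 1 is not reported here, and *Dnmt1*. *Mdm2*, *Sesn2*, *Plk2* and the regulators named for their role were described further after their values were seen.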

Additional observations from a re-analysis of the deposited data

Results flagged for a closer look

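In 5 genes among the members, a difference of at least 0.5 in one line or day stood beside a difference of the opposite sign in another. The same count was not made over all genes, so it shows nothing particular to the members. Each value compares 1 library with 1 library, so these contrasts were not tested. For *Trp53*, 1KO minus WT was 0.58 at day 0 and -0.16 at day 4. For *Pmaip1*, 1KO minus WT was -0.46 at day 0 and 0.58 at day 2. *Mdm2* was lower at day 4 than at day 0 in 1KO cells (-0.63) and higher in WT cells (0.17). *Ccng1* was nearly level over these days in 1KO cells (-0.028) and higher at day 4 in WT cells (0.54). *Bbc3* was lower at day 4 than at day 2 in 1KO cells (-0.52) and higher in 1KO+1CI cells (0.12).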

How the results depend on the processing

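The medians over the members were recomputed for 18 comparisons under 6 alternatives (pseudocounts of 0.1 and 0.01, rescaling to a common sum, median-ratio scaling, a minimum of 1 FPKM, and leaving out *Trp53*). Of these 108 medians, 103 moved by less than the counting interval, none changed sign past 0.5, and the largest shift was 0.162. The minimum of 1 FPKM removed no member, since the lowest value was 11.6 FPKM, so its medians could not move. Without *Trp53*, the median was 0.63 for 1KO+1CI against 1KO cells at day 4 and 0.57 for 1KO+1CI against WT cells at day 0. With rescaling to a common sum, it was 0.52 for 1KO+1CI against WT cells at day 4, 0.65 for day 2 against day 0 in 1KO cells and -0.45 for day 4 against day 2 in WT cells. That rescaling moves the median of all genes itself by up to -0.15, and with it *Bax* was 0.03 instead of -0.08 in 1KO+1CI against WT cells at day 4. In the fit, the members called higher in 1KO against WT cells fell from 1 to 0 without day 0, without day 2, without day 4 and with no filter on low values, and in 1KO+1CI against WT cells from 4 to 1 without day 0, 0 without day 2 and 1 without day 4. The fits without a day have 6 libraries, and the fit with no filter has all 9 and more genes tested. The call of *Trp53* as lower at day 4 than at day 0 went from 1 to 0 with a pseudocount of 0.1, with no filter and without day 2. Between day 2 and day 4, 1 member was called higher without day 0 and 1 with an adjusted p under 0.1, and 2 were higher between day 0 and day 4 with the latter. Calls of the other comparisons stayed within 1.5 times. Counting intervals of the members reached up to 0.22 to either side, so differences under that size can lie within counting error, and no condition was repeated.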

Other observations

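Among the regulators of p53, several changed with the day over all 3 lines. *Trp73*, which encodes the p53 relative p73, rose from day 0 to day 2 by 1.05 ± 0.16 (SE, limma adjusted p = 0.00529) and fell from day 2 to day 4 by -1.01 ± 0.16 (adjusted p = 0.00464), the course also seen in *Mdm2*. *Mdm4*, the partner of MDM2 that blocks p53 activity, fell from day 2 to day 4 by -1.15 ± 0.12 (adjusted p = 0.00139). From day 0 to day 4, 5 of 19 regulators fell and none rose, where 13.2% of all genes fell and 12.5% rose, with *Mdm4* lowest at -0.82 ± 0.12 (adjusted p = 0.00298). In the BCL2 family, *Bok*, a proapoptotic relative of *Bax*, rose from day 0 to day 4 by 1.02 ± 0.16 (adjusted p = 0.00322), and the antiapoptotic *Mcl1* fell from day 2 to day 4 by -0.58 ± 0.15 (adjusted p = 0.0290). *Mybl2*, a cell cycle transcription factor gene, fell from day 0 to day 4 by -2.26 ± 0.12 (adjusted p = 8.51e-05), the lowest of the 16 cell cycle genes, of which 3 fell and 1 rose over these days.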
